A study of Mus musculus with 12 samples.

Results

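The 10 genes described here encode the core and accessory subunits of Polycomb repressive complex 2 (PRC2) of the mouse. They were taken from a fixed list of names (Ezh1, Ezh2, Eed, Suz12, Jarid2, Aebp2, Mtf2, Phf1, Phf19 and Epop), and 10 of 10 were found among 21883 protein-coding genes in the RefSeq annotation of the mm10 assembly. The measurements are ChIP-seq peak lists from spermatogenic cells of P18 mouse testes (postnatal day 18, mixed strain background). INO80, the ATPase of a chromatin remodelling complex, was precipitated from wild-type cells. The histone variant H2A.Z was precipitated from Ino80cKO cells, in which Stra8-Cre deletes Ino80, and from Ino80WT cells. Stra8-Cre acts in germ cells from before meiosis, so somatic cells carried along with the digested tubules keep Ino80. Each of these 3 ChIP groups has 2 libraries and an input group of 2, but the files analysed hold 1 peak list for each ChIP group. No value therefore has a replicate error, the depth is unknown, and no difference between genotypes could be tested. The main counts are set beside the same count over all protein-coding genes, peaks or regions.

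PRC2 places methyl groups on H3K27, a mark of silenced genes. EZH1 and EZH2 are its alternative catalytic subunits, EED reads the mark and stimulates the enzyme, and SUZ12 is the scaffold on which the accessory subunits assemble. AEBP2 and JARID2 form one set of accessory subunits, and the Polycomb-like proteins PHF1, MTF2 and PHF19 together with EPOP form another. In male germ cells PRC2 is known for keeping somatic and developmental genes silent, and the title of the study links INO80 to a Polycomb subunit in spermatocytes.

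The promoter sequences bear on where the peaks lay, since RefSeq (GRCm38.p6) gives a start site for 9 of the 10 genes. These 9 genes have 13 start sites, each with a window of 250 bp before and 50 bp after the start. Ezh2 and Phf19 are printed because peaks of all 3 lists covered their start, and Suz12, Jarid2, Mtf2 and Phf1 because they departed from the other genes, a choice made after their values were seen. In the first 4 sequences, capitals mark matches to the YY1 motif AANATGGC or to the E2F motifs TTTCCCGC and TTTGGCGC, searched on both strands. In Mtf2 and Phf1, which held no match, capitals mark the bases inside the INO80 peak.
Ezh2 (chr6:47594981-47595280, minus strand): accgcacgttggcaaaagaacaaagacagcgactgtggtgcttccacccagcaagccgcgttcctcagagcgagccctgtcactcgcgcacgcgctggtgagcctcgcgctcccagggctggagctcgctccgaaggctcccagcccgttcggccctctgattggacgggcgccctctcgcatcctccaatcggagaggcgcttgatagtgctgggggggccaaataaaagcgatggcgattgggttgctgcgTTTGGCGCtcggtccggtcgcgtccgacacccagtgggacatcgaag
Phf19 (chr2:34913927-34914226, minus strand): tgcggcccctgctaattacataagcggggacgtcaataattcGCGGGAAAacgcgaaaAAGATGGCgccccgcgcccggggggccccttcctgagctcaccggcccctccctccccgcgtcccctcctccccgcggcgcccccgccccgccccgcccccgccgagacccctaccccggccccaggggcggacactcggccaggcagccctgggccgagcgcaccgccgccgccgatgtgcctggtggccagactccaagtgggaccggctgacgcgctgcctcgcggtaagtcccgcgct
Suz12 (chr11:79992856-79993155, plus strand): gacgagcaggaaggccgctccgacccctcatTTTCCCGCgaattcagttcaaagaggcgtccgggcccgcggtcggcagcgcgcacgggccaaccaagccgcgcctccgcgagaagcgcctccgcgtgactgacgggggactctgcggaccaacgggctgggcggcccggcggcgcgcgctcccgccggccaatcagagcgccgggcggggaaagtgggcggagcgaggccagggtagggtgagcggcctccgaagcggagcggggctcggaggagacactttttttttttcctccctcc
Jarid2, first start (chr13:44730524-44730823, plus strand): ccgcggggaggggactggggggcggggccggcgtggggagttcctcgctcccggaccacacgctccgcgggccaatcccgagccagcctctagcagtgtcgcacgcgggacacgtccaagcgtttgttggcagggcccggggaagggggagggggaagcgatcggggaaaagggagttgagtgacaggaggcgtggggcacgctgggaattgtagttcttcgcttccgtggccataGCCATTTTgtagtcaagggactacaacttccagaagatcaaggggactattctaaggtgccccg
Mtf2, first start (chr5:108065424-108065723, plus strand): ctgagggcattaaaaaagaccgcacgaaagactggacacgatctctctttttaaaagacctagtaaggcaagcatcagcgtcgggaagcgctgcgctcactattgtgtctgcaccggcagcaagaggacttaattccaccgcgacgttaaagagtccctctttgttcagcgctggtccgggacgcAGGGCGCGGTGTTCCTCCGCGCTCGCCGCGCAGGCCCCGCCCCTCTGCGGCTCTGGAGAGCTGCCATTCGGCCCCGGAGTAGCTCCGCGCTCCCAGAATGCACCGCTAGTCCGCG
Phf1 (chr17:26932877-26933176, plus strand): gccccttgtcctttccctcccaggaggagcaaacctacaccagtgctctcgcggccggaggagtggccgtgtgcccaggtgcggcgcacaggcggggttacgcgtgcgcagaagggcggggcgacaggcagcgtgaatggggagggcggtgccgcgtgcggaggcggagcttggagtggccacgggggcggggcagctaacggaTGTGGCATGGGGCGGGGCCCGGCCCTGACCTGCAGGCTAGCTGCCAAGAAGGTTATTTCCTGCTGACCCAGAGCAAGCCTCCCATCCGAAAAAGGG

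An E2F motif stood in 3 of the 13 windows, those of Ezh2, Suz12 and Phf19, and in 2.02% of all 21262 promoter windows of protein-coding genes. In Ezh2 its first base lay 3 bp after the start, in Suz12 219 bp before it and in Phf19 208 bp before it, on the opposite strand. The YY1 motif stood in 2 windows, 14 bp before the first Jarid2 start and 192 bp before the Phf19 start, and in 6.37% of all windows. The palindromic NRF1 motif was in none of the 13 windows and in 1.33% of all windows. No matches of different motifs overlapped in these windows. A match describes the letters and not a bound site. Both E2F motifs contain a CpG, and the windows that held them were rich in CpG. They had 31 (Ezh2), 41 (Suz12) and 38 CpG (Phf19), against a median of 13 in all windows. The shares of windows were not matched for CpG content.

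CpG content varied widely among the starts. The 13 windows held a median of 23 CpG dinucleotides, against 13 in all windows, and ranged from 2 at the second Mtf2 start to 41 at Suz12. The 6 windows with an INO80 peak over the start held 41 (Suz12), 38 (Phf19), 31 (Ezh2), 30 (first Mtf2 start), 24 (Phf1) and 23 CpG (Ezh1). The starts that INO80 did not cover included CpG-rich windows in the same range or close to it, with 24 and 23 CpG at the Jarid2 starts, 21 at the second Aebp2 start and 17 at Eed. Over all windows the median was 26 CpG where INO80 covered the start and 5 where it did not. The 3 CpG-poor windows, the second Mtf2 start with 2 CpG and the first and last Aebp2 starts with 4 each, contained no base of any peak in any list.

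**Figure D1:**
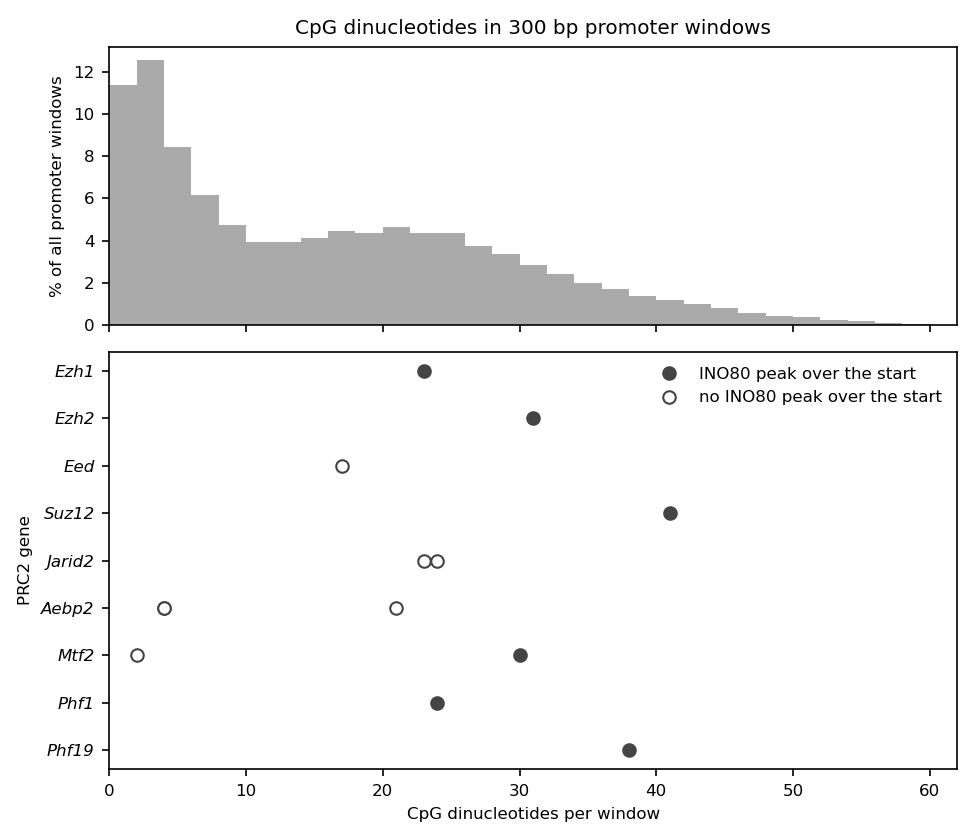
CpG dinucleotides per 300 bp promoter window (x axis), as a percentage of all 21262 windows in bins of 2 (upper panel) and for each RefSeq start of 9 PRC2 genes (lower panel), with filled circles where an INO80 peak covers the start. The filled circles lie between 23 and 41 CpG, the open circles of Jarid2 (23 and 24) overlap them, and the 3 lowest circles, at 2 and 4 CpG, are open (2 Aebp2 circles at 4 coincide).

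INO80 was present at every PRC2 gene. Within the gene body and 5 kb on both sides, 10 of 10 genes held at least 1 INO80 peak, as did 63.3% of all protein-coding genes. The windows held 16 INO80 peaks. The widest peak per gene had a median of 1270.5 bp, against 906 bp over all genes with a peak, and it exceeded that value in 6 of 10 genes. These windows are longer than usual, with a median of 48183.5 bp against 27170 bp. Around starts alone, which are free of gene length, 9 of 9 genes with a listed start held INO80 within 1 kb, as did 56.0% of all genes with a listed start.

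Among the core subunits, the INO80 peaks were single and lay at the start. At Ezh2 the peak spanned 1606 bp (chromosome 6, 47594216 to 47595821), reaching from 791 bp before the start to 814 bp after it and over the neighbouring noncoding gene F830010H11Rik. At Ezh1 the peak spanned 624 bp (chromosome 11, 101225979 to 101226602). The Eed peak of 800 bp (chromosome 7, 89980142 to 89980941) began 35 bp after the start and lay wholly inside the gene. At Suz12 a peak of 1610 bp (chromosome 11, 79992389 to 79993998) ran from 717 bp before to 892 bp after the start. The peaks at Ezh2 and Suz12 were thus over 2 times as wide as that at Ezh1, which was near the median of the INO80 list (678 bp).

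The accessory genes held the widest and the narrowest INO80 peaks of the group. Phf19 had a peak of 2712 bp (chromosome 2, 34912111 to 34914822), and 4.29% of all INO80 peaks were as wide or wider. Epop had a peak of 2574 bp (chromosome 11, 97627533 to 97630106), longer than the Epop gene itself (2330 bp). At Aebp2 the peak of 1610 bp (chromosome 6, 140623232 to 140624841) lay between the first and second starts and ended 68 bp before the second. Mtf2 had 715 bp (chromosome 5, 108065609 to 108066323) over its first start, and Phf1 had 447 bp (chromosome 17, 26933081 to 26933527) over its only start.

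Jarid2 was the gene with the most INO80 peaks. Its 4 peaks were 935, 147, 555 and 595 bp wide in the order of the gene. The first lay before the gene and ended 164 bp short of the first start (chromosome 13, 44729676 to 44730610). The last lay 138240 bp after the second start, deep in the gene body (44869511 to 44870105). It was the only one of the 16 INO80 peaks without H2A.Z of either genotype. Phf19 likewise held a second INO80 peak in its body, 431 bp wide and 8361 bp after the start (34905185 to 34905615).

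**Figure D2:**
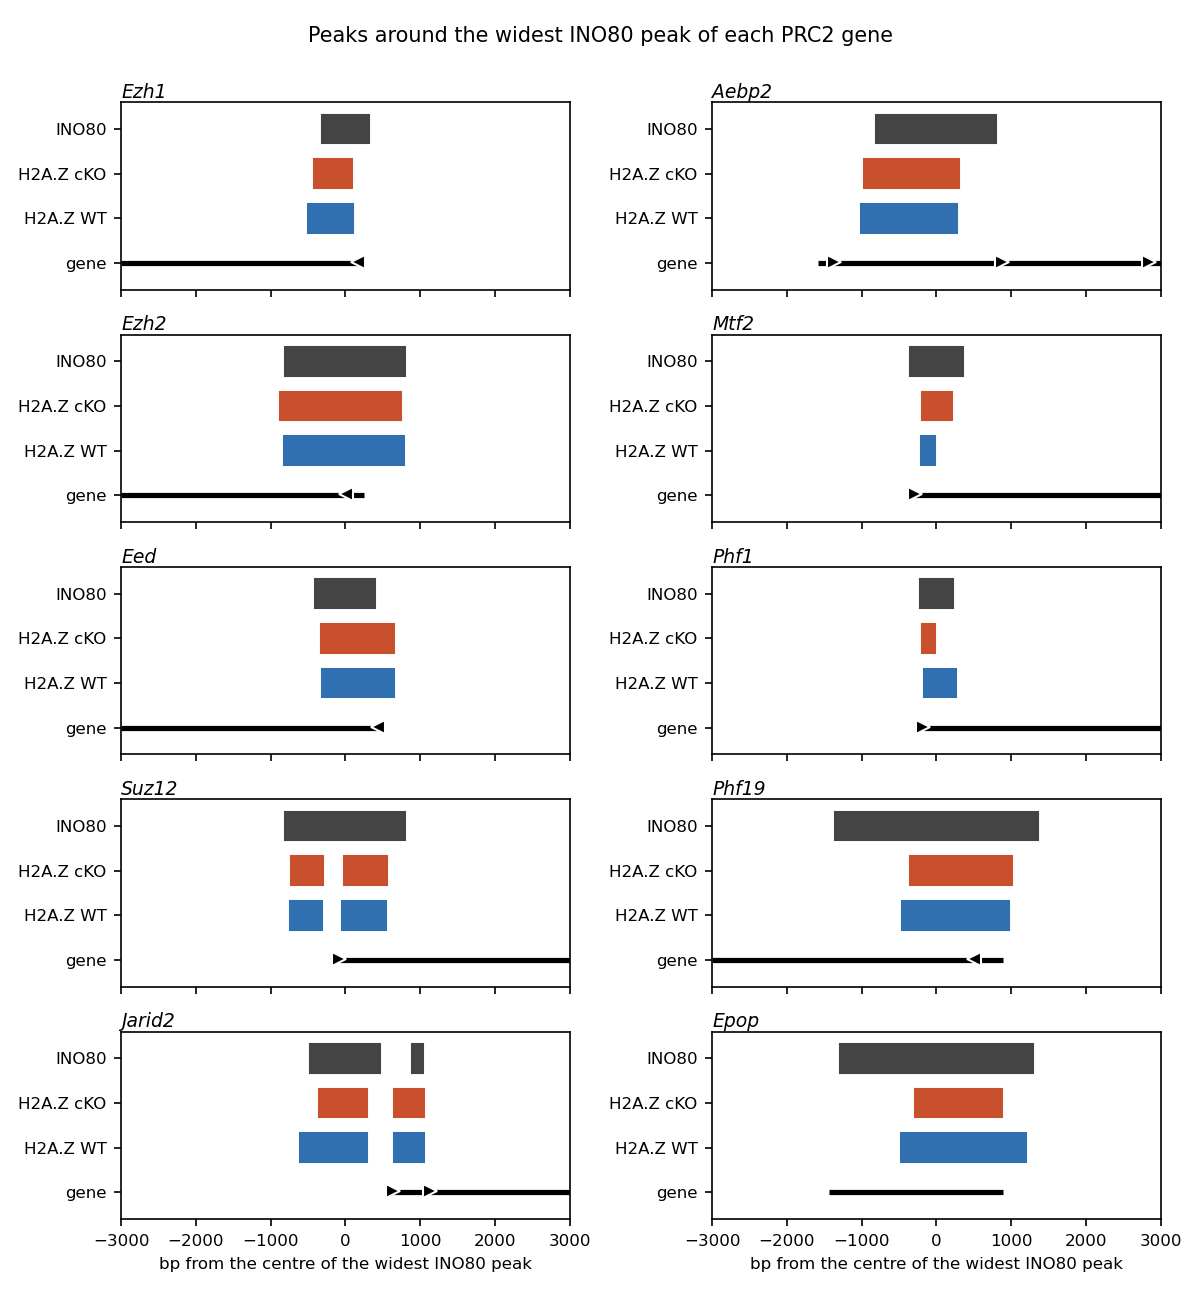
Peaks of INO80 (grey), H2A.Z in Ino80cKO cells (orange) and H2A.Z in Ino80WT cells (blue) within 3 kb of the centre of the widest INO80 peak of each gene (x axis in bp, in the direction of the chromosome). The black line is the gene and arrowheads are RefSeq starts (none drawn for Epop). At Suz12 a single INO80 peak spans a pair of H2A.Z peaks in both genotypes, with the start between them.

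H2A.Z peaks were also found at every PRC2 gene in both genotypes. In Ino80cKO cells 10 of 10 genes held one, as did 70.1% of all protein-coding genes, and in Ino80WT cells 10 of 10, as did 73.6%. Peaks of all 3 lists together were present at 10 of 10 genes and at 60.6% of all genes. Within 1 kb of a listed start, 9 of 9 genes held cKO H2A.Z, against 60.9% of all genes, and 9 of 9 WT H2A.Z, against 63.9%. As over the whole INO80 list, most INO80 peaks overlapped H2A.Z by at least 1 bp. Of 16 peaks, 14 overlapped a cKO H2A.Z peak (77.6% of all INO80 peaks) and 15 a WT H2A.Z peak (83.0%), counts near those shares. The exceptions were the distal Jarid2 peak and, for the cKO list, a 304 bp INO80 peak of the Phf1 window that lies in the neighbouring gene Cuta.

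H2A.Z lay beside more of the PRC2 starts than it covered. Of the 13 starts, INO80 covered 6 (37.4% of all 21262 starts), cKO H2A.Z 4 (35.3%) and WT H2A.Z 3 (43.0%). The genotypes differed only at the Phf1 start, which cKO H2A.Z covered and WT H2A.Z missed by 6 bp. Peaks of all 3 lists covered 2 starts, those of Ezh2 and Phf19 (24.5% of all starts). Among the 11 starts with a peak within 1 kb, which were the same 11 in each list, INO80 covered 6 (68.8% of all such starts), cKO H2A.Z 4 (60.0%) and WT H2A.Z 3 (69.2%). Starts of 1 gene share their peaks, so the 13 are not independent. At Suz12 the start fell into a gap between neighbouring H2A.Z peaks, 273 bp wide in cKO cells and 262 bp in WT cells, that the INO80 peak bridged. The first Jarid2 start fell into a like gap of 354 bp in cKO cells and 351 bp in WT cells, which the INO80 peak entered without reaching the start. At Ezh1 the H2A.Z peak began 85 bp after the start in cKO cells and 64 bp after it in WT cells, and at Mtf2 99 bp and 83 bp after the first start. At Eed the arrangement was the reverse, with H2A.Z of both genotypes over the start and INO80 after it.

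The genotype comparison asked whether H2A.Z at these genes differs once Ino80 is deleted. Over the whole window, cKO coverage exceeded WT coverage by 7 bp at Ezh2 and by 1 bp at Eed, and the ratio of cKO to WT coverage was 0.994 at Suz12 and 0.976 at Phf19. It was 1.09 at Aebp2, 0.843 at Ezh1 and 0.820 at Jarid2. The genes farthest from equal coverage were Phf1 (0.219), Epop (0.628) and Mtf2 (2.14). Overlapping H2A.Z peaks were joined into 19 regions. Peaks of both genotypes were present in 15 of them (66.4% of all 35393 regions), a cKO peak alone in 1 (4.90%) and a WT peak alone in 3 (28.7%). By gene, 1 of 10 had a cKO-only region (5.04% of all genes) and 2 of 10 a WT-only region (20.5%), so genes with a WT-only region were about as frequent as among all genes. The cKO list is shorter than the WT list (26199 against 33827 peaks), and narrower cKO peaks were the rule genome-wide, so each value is read beside that background.

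The shared regions covered fewer base pairs in cKO than in WT cells in 11 of 15 cases, against 72.8% of all 23485 shared regions. The median ratio of cKO to WT width was 0.981, and over all shared regions 0.867. In 7 of 15 the cKO width was within 5% of the WT width, as in 15.9% of all shared regions. Some genes held more than 1 of the 15 regions, so these are not independent. The cKO peaks of the windows had a median width of 549.5 bp, against 422 bp in the whole list, and the shares were not matched for width. Among the 8968 shared regions that hold INO80 within 1 kb of a listed start, the median ratio was 0.899, 71.9% were narrower in cKO cells and 20.1% were within 5%. Summed over the window, H2A.Z covered less in cKO cells at 6 of 10 genes (78.9% of all genes with H2A.Z in both genotypes). The widest H2A.Z peak was narrower in cKO cells at 7 of 10 genes (73.5%).

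**Figure D3:**
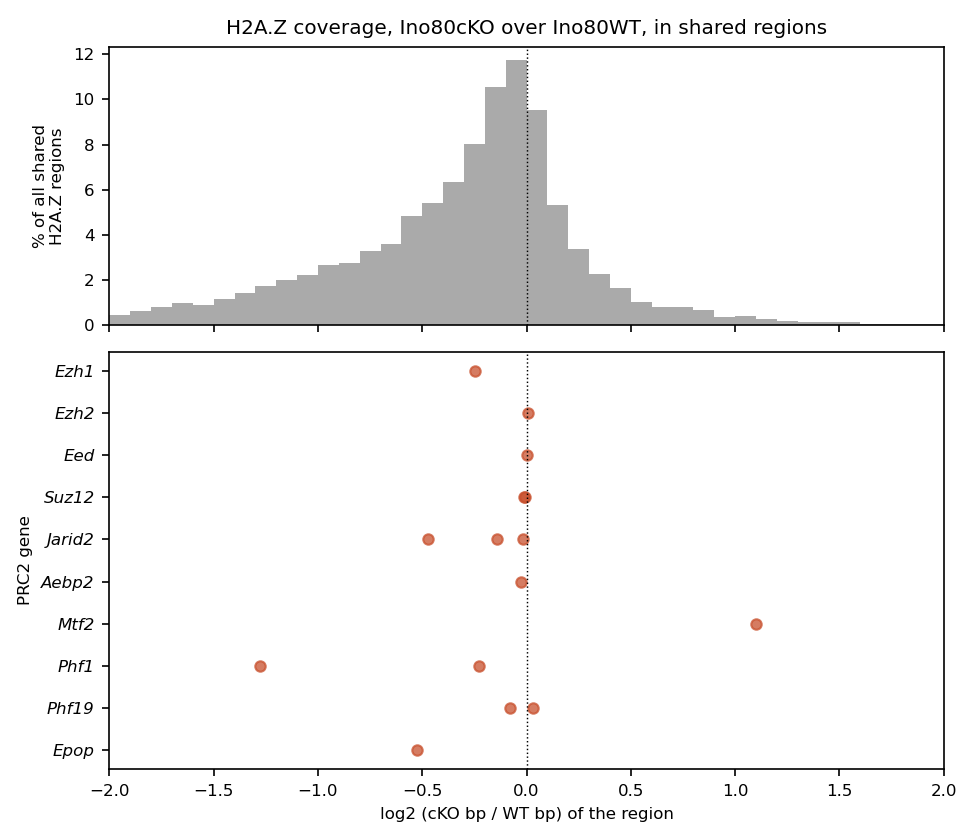
Log2 ratio of H2A.Z width in Ino80cKO over Ino80WT cells for shared regions (x axis), as a percentage of all 23485 shared regions in bins of 0.1 (upper panel; the axis ends at 2 on either side) and for the 15 shared regions of the PRC2 genes, 1 circle each (lower panel). Mtf2 lies at 1.10 and the start region of Phf1 at -1.28, and the circles of Ezh2, Eed and Suz12 sit within 0.02 of 0.

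Among the core genes, Ezh2, Eed and Suz12 had nearly equal H2A.Z widths. At Ezh2 the peak spanned 1620 bp in cKO cells and 1613 bp in WT cells, among the widest of either list, with 1.79% of cKO and 2.38% of WT peaks as wide or wider. Its edges lay 50 and 43 bp lower on the chromosome in cKO cells, so the genotypes differed more in its position than in its width. At Eed the widths were 970 bp in cKO cells and 969 bp in WT cells, with the right edge at the same base. At Suz12 the pair of peaks measured 428 and 587 bp in cKO cells, against 432 and 589 bp in WT cells. Ezh1 was the exception among core genes, with 512 bp in cKO cells and 607 bp in WT cells, a ratio of 0.843. A lower ratio was seen in 46.6% of all shared regions, so Ezh1 sat near the middle of the genome-wide range.

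Among the accessory genes, Phf19 had H2A.Z at its start (1364 bp in cKO cells, 1443 bp in WT cells) and in its body (993 bp in cKO cells, 972 bp in WT cells). The body peak lay 8298 bp after the start in cKO cells and 8332 bp after it in WT cells. At Aebp2 the main peak measured 1269 bp in cKO cells and 1294 bp in WT cells. A cKO-only peak of 147 bp in the Aebp2 body (140670213 to 140670359) had the smallest width found in any list, and INO80 did not overlap it. Jarid2 held 3 regions. The one before the gene measured 647 bp in cKO cells and 899 bp in WT cells, with all but 2 bp of the difference at the edge away from the gene. The one after the first start measured 406 bp in cKO cells and 411 bp in WT cells, and the one inside the body 214 bp in cKO cells and 236 bp in WT cells.

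Phf1 had the lowest H2A.Z coverage in cKO cells relative to WT cells. At its start the peak spanned 178 bp in cKO cells (26933107 to 26933284) and 432 bp in WT cells (26933133 to 26933564), a ratio of 0.412. Of all shared regions 8.07% had a lower ratio, and 13.7% had at most 0.5. The cKO peak was a narrow one, since 87.4% of the cKO list was as wide or wider. The cKO peak ended 280 bp short of the WT peak on the side of the gene body, and the INO80 peak of 447 bp covered all of it. Across the window H2A.Z covered 329 bp in cKO cells and 1504 bp in WT cells. These totals include peaks that lay outside Phf1. In the neighbouring gene Cuta, a single cKO peak of 151 bp faced WT peaks of 527 and 177 bp.

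Epop, whose product links PRC2 to elongin, had the next lowest cKO coverage relative to WT. Its peak spanned 1166 bp in cKO cells (97628530 to 97629695) and 1680 bp in WT cells (97628340 to 97630019), a ratio of 0.694. The cKO peak was shorter by 190 bp at the left edge and by 324 bp at the right edge, and lay wholly within the WT and INO80 peaks. A ratio below that of Epop was seen in 29.4% of all shared regions. A WT-only peak of 177 bp lay 2475 bp outside the gene (97632191 to 97632367), without INO80.

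Mtf2 went the other way. Its only H2A.Z peak spanned 409 bp in cKO cells (108065773 to 108066181) and 191 bp in WT cells (108065757 to 108065947), a ratio of 2.14. Such ratios were uncommon, since 1.42% of all shared regions reached 2 or more and 1.02% exceeded that of Mtf2. The peak ended 234 bp farther into the gene in cKO cells, and both peaks lay wholly inside the INO80 peak. Of the cKO list 51.3% of peaks were as wide or wider, and of the WT list 85.9%, where the Mtf2 peak was thus among the narrow ones. The 3 Polycomb-like genes thus differed among themselves in start-region ratio: 2.14 at Mtf2, 0.945 at Phf19 and 0.412 at Phf1. The highest and the lowest of these each rest on a narrow peak, 191 bp at Mtf2 in WT cells and 178 bp at Phf1 in cKO cells. The difference was not tested.

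**Figure D4:**
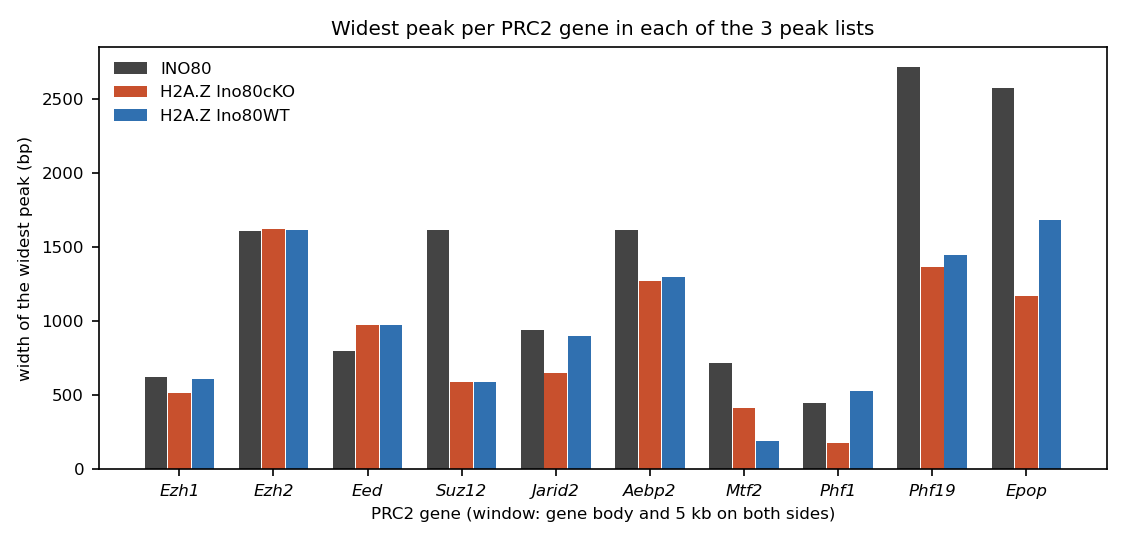
Width in bp of the widest INO80 peak (grey), H2A.Z peak in Ino80cKO cells (orange) and H2A.Z peak in Ino80WT cells (blue) in the window of each PRC2 gene. INO80 reaches 2712 bp at Phf19, the H2A.Z bars of Ezh2, Eed and Suz12 are level between genotypes, and the WT bar of Phf1 (527 bp) is a peak in Cuta.

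INO80 and H2A.Z widths did not follow the same order. The widest INO80 peaks stood at Phf19 and Epop, the widest cKO H2A.Z peak at Ezh2 (1620 bp) and the widest WT H2A.Z peak at Epop (1680 bp). The widest INO80 peak was wider than the widest H2A.Z peak at 8 of 10 genes in cKO cells (63.0% of all genes with both) and at 7 of 10 in WT cells (52.8%). These counts differ only at Phf1, where the widest WT peak (527 bp) lay in Cuta. At the Phf1 start itself INO80 spanned 447 bp and WT H2A.Z 432 bp. At Epop the INO80 peak held the whole H2A.Z peak of either genotype, and H2A.Z filled 45.3% of it in cKO cells and 65.3% in WT cells. At Ezh2 the peaks nearly coincided, and H2A.Z filled 1547 of the 1606 bp of the INO80 peak in cKO cells and 1590 bp in WT cells.

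Other genes of Polycomb regulation were taken from lists chosen with earlier results of these data known. The first list held 7 genes linked to PRC2 (histone-binding partners, PALI proteins, the inhibitor gene Ezhip and H3K27 demethylases). Of these, 7 held INO80 (63.3% of all protein-coding genes), 6 cKO H2A.Z (70.1%) and 6 WT H2A.Z (73.6%). Rbbp7, an X-linked gene for a histone-binding subunit, lacked H2A.Z in both lists. H2A.Z covered less in cKO cells at 6 of the 6 linked genes with H2A.Z in both genotypes. The median coverage ratio of cKO to WT was 0.985 for the 10 PRC2 genes, against 0.589 for these 6 and 0.831 for all genes with H2A.Z in both genotypes. Single PRC2 genes ran from 0.219 at Phf1 to 2.14 at Mtf2. The linked genes ran from Ezhip (167 bp in cKO and 801 bp in WT cells) to Kdm6a (1098 and 1366 bp). Both lists are small, and the difference between their medians was not tested. Kdm6b, an H3K27 demethylase with the widest INO80 peak of the list (2738 bp), had 765 bp of H2A.Z in cKO cells and 3524 bp in WT cells. At Lcorl, which encodes a PALI protein, the widest H2A.Z peak spanned 1149 bp in cKO cells and 1808 bp in WT cells.

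Of 22 PRC1 genes, whose complex ubiquitinates H2A, 21 held INO80 (63.3% of all protein-coding genes), 21 cKO H2A.Z (70.1%) and 21 WT H2A.Z (73.6%). Scml2, an X-linked germline partner of PRC1, had no peak in any list. Coverage was lower in cKO cells at 16 of 21 genes, near the 78.9% of all genes with H2A.Z in both genotypes, with a median ratio of 0.919. The widest H2A.Z peak of the list was in the Bmi1 window (2192 bp in cKO cells, 2324 bp in WT cells) and lay in the flank, outside the gene body. Of 5 genes for removal of H2A ubiquitin, 5 had peaks in all 3 lists (60.6% of all protein-coding genes). Coverage was lower in cKO cells at 3, too few genes to set against the 78.9%, with a median ratio of 0.920. The widest peaks were at Asxl3, with 1373 bp for INO80, and 1486 bp (cKO) and 1616 bp (WT) for H2A.Z.

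Marker genes of the labelled germ cells and of other testis cells both held peaks. Of 10 germ cell markers, 8 held INO80, 9 cKO H2A.Z and 10 WT H2A.Z, and of 7 Sertoli cell markers 6 held a peak in each list. Of 6 Leydig cell markers 2 held INO80, 3 cKO H2A.Z and 3 WT H2A.Z, and of 5 markers of other somatic cells 2 held INO80, 2 cKO H2A.Z and 4 WT H2A.Z. Over all protein-coding genes the shares were 63.3% for INO80, 70.1% for cKO H2A.Z and 73.6% for WT H2A.Z. The part of other cell types in the results above was not tested, and the loss of Ino80 cannot be checked from peak positions.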

How the data were processed

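ChIP-seq libraries of INO80 and H2A.Z were analysed through 3 peak lists that the authors deposited, 1 for each ChIP group of 2 libraries, holding chromosome, start and end without score or p-value. Chromatin was cut with micrococcal nuclease, per the labels' protocols, so peak outlines also follow nucleosome positions. The submitters' processing notes list Bowtie2, SAMtools, deepTools and MACS2 and the build mm10, with no roles. Their versions, the peak threshold, the control and the pooling of libraries are not given in these sources. Input libraries were not analysed here. Depth is unknown, and width is the only size available.

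Genes came from RefSeq (GRCm38.p6, the assembly of mm10), counting each gene identifier once, on chromosomes 1 to 19, X and Y. Exons were not used here. Windows were the gene body and 5 kb on both sides, and 1 bp of overlap counted. H2A.Z peaks that overlapped between genotypes made 1 region. All PRC2 genes are named; a few values of other genes are not reported here. The members and lists were chosen with earlier results of these data known. Joining was tested on simulated data and checked against bedtools 2.31.1. Python 3.11.15, numpy 2.4.6, pandas 2.3.3 and matplotlib 3.10.9 were used. Alternatives changed the flank, the overlap and the lists.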

Additional observations from a re-analysis of the deposited data

How the results depend on the processing

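Under 6 other settings, and windows of 1 kb around starts and shared regions alone (both added after seeing the data), 45 of 52 counts stayed within 1.5 times the reported one. INO80 was at 8 to 10 of 10 genes, cKO H2A.Z at 8 to 10 and WT H2A.Z at 9 or 10. Of the rest, WT-only regions numbered 0 with 1 kb flanks and 0 in the gene body alone, against 3, which shows that the 3 lie outside the genes. With the widest 50% of every list, 7 INO80 peaks overlapped WT H2A.Z, 9 regions were shared, 1 was WT only and 6 shared regions covered less in cKO cells, as fewer peaks remained. With the WT list cut to the length of the cKO list, 4 regions were cKO only, as the cut removed narrow WT partners, among them that of Mtf2. Genes with lower coverage in cKO cells numbered 6 of 10 in each of the 5 flank and list settings and 7 in shared regions alone. No paired analysis was possible because each list stands for both libraries of a group, and no library could be left out for the same reason. Unknown depth limits what the absence of a peak shows.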
